A study of Rattus norvegicus with 12 samples.

Results

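Pituitary gene expression was compared between adult male rats whose dams were dosed with TCDD, a dioxin, and males whose dams were given vehicle. The comparison used the 6 pituitary arrays of a series of 12, chosen by their labels, 3 with maternal TCDD and 3 with maternal vehicle. All were Wistar males on postnatal day 70, with no genotype given. TCDD was given in corn oil, by mouth, to the dams on gestation day 15. The series text and the sample protocols disagree on the dose (1 µg per kg and 1 mg per kg), so no value is tied to a dose. Each array, an Illumina RatRef-12 BeadChip, was hybridised with biotin-labelled cRNA, for which 250 ng of RNA was amplified. The labels do not say which pups share a dam, or whether an array holds 1 animal or a pool, so the tests measure the spread between arrays. The series text states the aim of finding genes with a lasting change of expression tied to altered sexual behaviour.

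The anterior pituitary holds separate endocrine cell types that make growth hormone, prolactin, the gonadotropins, thyrotropin and the peptides cut from proopiomelanocortin. Each type is steered by hypothalamic factors that act on its receptors, many of them through cyclic AMP, protein kinase C or calcium. The neural lobe, which is usually dissected with it, holds pituicytes and the endings of vasopressin and oxytocin neurons. TCDD binds the aryl hydrocarbon receptor (AhR), which pairs with ARNT, binds DNA at xenobiotic response elements and induces genes such as the cytochrome P450 gene Cyp1b1.

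The arrays carried the transcripts of the labelled tissue. On the log2 scale of normalized intensity, Lhb, the beta subunit of luteinizing hormone, lay between 14.16 and 14.37, and Pou1f1, the transcription factor of the somatotrope, lactotrope and thyrotrope lineages, between 11.00 and 11.20. The peptide genes Pmch, Hcrt, Trh, Crh, Sst and Gnrh1 of hypothalamic neurons were not above the detection filter. Of 13 such genes listed, 4 were above it: Agrp, Npy, Cartpt and Pdyn. Their summed intensity was 1628 to 4844 on the vehicle arrays and 2362 to 4140 on the TCDD arrays. The growth hormone gene Gh1 was not paired with a probe and is not analysed here. Detected probes numbered 9934 to 10371 of 22523 per array (44.1% to 46.0%). The vehicle arrays detected 10371, 10286 and 10164 probes and the TCDD arrays 10054, 9934 and 9938, so the groups did not overlap in this measure. Any 2 arrays correlated at a Pearson r of 0.989 to 0.993, within and between groups. Vehicle array 1 stood apart on the first principal component (25.8% of the variance), at -20.0 where the other 5 arrays lay between -0.68 and 7.07. Several counts that turn on vehicle array 1 are given without it as well.

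Pde10a, a phosphodiesterase that breaks down cyclic AMP and cyclic GMP, was 2.68-fold higher with maternal TCDD and Cyp1b1 was 2.55-fold higher. Among lower genes, Fos, a transcription factor of the immediate early class, differed by 2.68-fold, and Sstr2, which encodes a somatostatin receptor, by 1.93-fold. None of 10251 tested probes passed limma's moderated test after Benjamini-Hochberg adjustment (0 at adjusted p under 0.05, percent called 0%), and the smallest adjusted p was 0.0531, for Pde10a. At an unadjusted p under 0.05 there were 617 probes (6.02%), 280 higher with TCDD (2.73%) and 337 lower (3.29%). Median scaling, used instead of quantile normalization, gave 472, of which 23.1% were higher, against 45.4% of the 617. Every statement below that a gene was higher or lower describes these 6 arrays and is not a call. Genes below that the naming rule does not cover, given to fill out a list, were chosen after their values were seen.

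Most genes lay close to equality. The median absolute log2 difference was 0.084, the 90th percentile 0.24 and the 99th percentile 0.51. The 95% interval of the difference lay within 1.5-fold either way for 9249 probes (90.2%) and within 2-fold for 10096 (98.5%). Of 7442 named genes, each taken at its brightest probe, 43 differed by over 1.5-fold and 11 by over 2-fold. The 3 TCDD arrays lay wholly above the 3 vehicle arrays for 550 probes (5.37%) and wholly below for 586 (5.72%), together 1136 (11.1%).

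**Figure D1:**
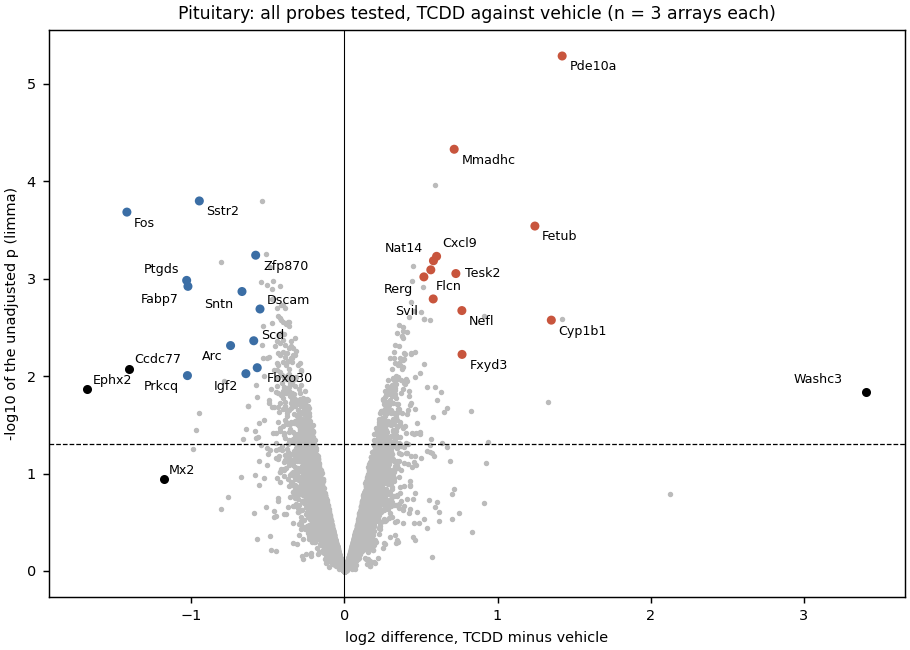
Each point is 1 of 10251 probes, with the log2 difference (TCDD minus vehicle) on the x axis and the -log10 of limma's unadjusted p on the y axis; the dashed line marks a p of 0.05. Red and blue points are the genes named for their size among those at p under 0.01 with groups apart, and the black points are 4 further genes over 2-fold; Pde10a at 1.42 lies highest and Washc3 at 3.40 farthest to the right.

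Pde10a read 8.69, 8.14 and 8.36 on the vehicle arrays and 9.83, 9.79 and 9.83 on the TCDD arrays (log2 normalized intensity). All TCDD values were higher, and they were nearly equal while the vehicle values were spread. The difference was 1.42 (SE 0.136, 95% interval 1.11 to 1.73, limma adjusted p = 0.0531), and it ran from 1.30 to 1.57 when 1 array was left out. It passed the threshold without vehicle array 1 (adjusted p = 0.00788), but not without any other single array (limma adjusted p 0.115 to 0.226). In the phosphodiesterase family 10 genes were tested. Of these, 7 were higher and 3 lower (of all probes, 50.4% were higher), 2 of them at an unadjusted p under 0.05 (background 6.02%), and the median difference was 0.18 where that of all named genes was 0.00094. The other was Pde8a, a cyclic AMP phosphodiesterase, at 0.24 (vehicle 6.30, 6.20 and 6.25, TCDD 6.46, 6.56 and 6.45), with all TCDD values above. Pde2a, a phosphodiesterase stimulated by cyclic GMP, stood at 0.32, and Pde7a, specific for cyclic AMP, at -0.18. Both had groups that overlapped.

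Pde10a is also an abundant transcript of striatal neurons, so striatal markers were read beside it. Of 9 tested, 7 were higher and 2 lower with a median of 0.20, and 2 had an unadjusted p under 0.05 (background 6.02%), Pde10a itself and the dopamine receptor gene Drd1 (0.21). Without Pde10a, 6 of 8 were higher with a median of 0.17, and 1 had such a p. Ppp1r1b, which encodes the striatal phosphoprotein DARPP-32, stood at 0.04 and the substance P precursor gene Tac1 at -0.51. The summed intensity of the list was 8661 to 11677 on the vehicle arrays and 9911 to 11548 on the TCDD arrays, so the groups overlapped. What these markers contribute to the difference in Pde10a was not tested.

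Cyp1b1, the P450 that AhR induces and that oxidises estradiol and polycyclic hydrocarbons, read 5.90, 5.90 and 5.88 in vehicle and 7.57, 6.37 and 7.78 with TCDD. TCDD arrays 1 and 3 were far above vehicle and TCDD array 2 was closer. The difference was 1.35 (SE 0.318, limma adjusted p = 0.562). Without TCDD array 2, the one nearest to vehicle, it was 1.80 and passed (adjusted p = 0.00405). It passed in no other setting, with a limma adjusted p of up to 0.865. On the authors' normalized intensities the difference was 0.54. Nqo1, a quinone reductase that answers to both AhR and the oxidative stress factor Nrf2, read 9.45, 9.78 and 9.73 in vehicle and 10.12, 9.95 and 10.19 with TCDD, a difference of 0.43 with no overlap. Ahr itself, the receptor gene, differed by 0.05 (95% interval -0.32 to 0.43). Of 12 AhR target genes listed, 4 were tested. Besides those already given, Nfe2l2, which encodes Nrf2, stood at -0.17 and the aldehyde dehydrogenase gene Aldh3a1 at -0.20. Cyp1a1, Cyp1a2 and Ahrr, the classical AhR targets and the AhR repressor, were not above the detection filter.

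The 250 bases before the start sites of Cyp1b1 and Nqo1 are shown because these are the AhR target genes that stood higher (RefSeq, assembly GRCr8, 5′ to 3′ on the gene's strand). Capitals mark the core of the xenobiotic response element, GCGTG or its reverse complement, and the antioxidant response element core TGACNNNGC was searched as well, on both strands.
Cyp1b1, chr6:21094315-21094564, plus strand: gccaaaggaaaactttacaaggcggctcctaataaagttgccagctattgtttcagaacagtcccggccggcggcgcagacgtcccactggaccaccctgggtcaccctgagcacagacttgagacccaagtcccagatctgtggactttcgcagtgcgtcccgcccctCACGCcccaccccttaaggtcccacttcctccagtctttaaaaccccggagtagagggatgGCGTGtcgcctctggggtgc
Nqo1, chr19:52220268-52220517, minus strand: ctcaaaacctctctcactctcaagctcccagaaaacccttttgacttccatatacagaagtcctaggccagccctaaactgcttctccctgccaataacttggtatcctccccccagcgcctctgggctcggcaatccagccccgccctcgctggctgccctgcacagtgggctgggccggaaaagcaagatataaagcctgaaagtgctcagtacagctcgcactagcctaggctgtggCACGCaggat
The Cyp1b1 window holds 2 cores, which begin 81 and 20 bases before the start site, and the Nqo1 window holds 1, at 10 bases. Neither window holds the antioxidant core. Of 33469 rat promoter windows of this length, 25.9% hold GCGTG and 10.1% hold TGACNNNGC, so the matches are a description of these letters.

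Genes of the Nrf2 response, which guard against oxidants, were spread around 0. Of 20 tested, 13 were higher and 7 lower (10 higher with median scaling), and the median was 0.03. Apart from Nqo1, 1 had an unadjusted p under 0.05 (background 6.02%). This was Hmox1, the inducible heme oxygenase gene, which read 6.91, 6.98 and 6.91 in vehicle and 7.25, 7.18 and 7.36 with TCDD. Its difference was 0.33 and its groups lay apart. The glutathione synthesis genes Gclc and Gclm stood at 0.01 and 0.11, and the glutathione transferase gene Gstp1 at -0.21.

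Several further genes with groups apart had no link to the dioxin response in the lists. Fetub, which encodes fetuin B, a protease inhibitor that the liver secretes, read 5.83, 6.69 and 6.41 in vehicle and 7.35, 7.64 and 7.67 with TCDD. Its difference was 1.24 (SE 0.207, limma adjusted p = 0.422), or 0.53 on the authors' normalized intensities. Mmadhc, which directs cobalamin to its enzymes in the cytosol and mitochondria, read 9.96, 9.85 and 9.72 against 10.55, 10.55 and 10.58. The TCDD values were nearly identical and all higher, with a difference of 0.72 (SE 0.0922, adjusted p = 0.241). Nefl, the light neurofilament gene, stood at 0.77, Fxyd3, a regulator of the sodium pump, at 0.77 and the kinase gene Tesk2 at 0.73. The chemokine gene Cxcl9 was 0.60 higher, Nat14 0.58, the actin-binding supervillin gene Svil 0.58, the folliculin gene Flcn 0.56 and the Ras-like gene Rerg 0.52. The adjusted p of these 8 genes lay between 0.501 and 0.649. With other processing of the arrays the smallest difference was 0.18 for Nat14, 0.23 for Cxcl9, 0.24 for Rerg and 0.33 for Fxyd3. It was 0.44 for Svil, 0.45 for Tesk2, 0.49 for Flcn and 0.72 for Nefl.

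Fos read 10.16, 10.06 and 10.21 in vehicle and 9.31, 8.53 and 8.33 with TCDD. Every TCDD value was lower, TCDD array 1 least so. The difference was -1.42 (SE 0.225, limma adjusted p = 0.354). Without TCDD array 1, the one nearest to vehicle, it was -1.71 and passed. It passed in no other setting, with a limma adjusted p of up to 0.697. Fos is induced within minutes of a stimulus, and so are most of its list. Of 17 immediate early genes tested, 13 were lower and 4 higher, with a median of -0.21, and 5 were lower at an unadjusted p under 0.05 (background 3.29%). Groups lay apart in 6 lower genes and 1 higher gene (background 5.72% and 5.37%). Arc, a synaptic plasticity gene, read 8.35, 8.62 and 8.85 against 8.23, 7.51 and 7.84, a difference of -0.74. Egr1, the transcription factor that drives Lhb in gonadotropes, read 10.79, 11.10 and 11.30 against 10.77, 10.30 and 9.76, a difference of -0.79. In Arc and Egr1 TCDD array 1 lay close under the lowest vehicle array. Dusp1, a phosphatase of MAP kinases, stood at -0.63, and the transcription factor gene Klf4, named after its value was seen, at -0.21.

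The list was not uniform. The nuclear receptor genes Nr4a1, detected on 3 of 6 arrays, and Nr4a2 stood at -0.05 and -0.03, Jun, the partner of Fos, at 0.16 with all TCDD values above vehicle, and Nr4a3 at 0.46 with overlap. The list's median was -0.30 without vehicle array 1 and -0.08 without vehicle array 3. The cytokine and chemokine list, which also holds rapidly induced genes, had 10 of 16 members higher.

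The 250 bases before the start site of Egr1 are shown because it is an immediate early gene among the 5 and serum response factor and cyclic AMP signalling are known to control it (RefSeq, GRCr8, 5′ to 3′). Capitals mark serum response elements and the short cyclic AMP response element TGACG or its reverse complement.
Egr1, chr18:26736828-26737077, plus strand: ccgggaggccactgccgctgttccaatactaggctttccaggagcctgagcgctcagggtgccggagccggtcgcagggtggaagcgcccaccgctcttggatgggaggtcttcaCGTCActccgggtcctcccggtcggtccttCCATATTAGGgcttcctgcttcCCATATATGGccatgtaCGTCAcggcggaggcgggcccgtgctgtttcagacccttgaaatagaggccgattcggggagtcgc
The window holds 2 serum response elements, which begin 105 and 83 bases before the start site, and 2 copies of TGACG, at 135 and 66 bases, with no overlap between them. Serum response elements occur in 1.5% and TGACG in 18.2% of 33469 rat windows of this length, and the full palindrome TGACGTCA, in 1.59%, was not in the Egr1 window.

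Receptors through which the hypothalamus acts on the pituitary were lower in 9 of 14 cases, with a median of -0.09. Without vehicle array 3 the median was 0.02 with 7 lower, and without vehicle array 1 there were 11 lower. At an unadjusted p under 0.05 there were 3, all lower and all with groups apart, against 3.29% and 5.72% of all probes, and all 3 are inhibitory receptors of pituitary secretion. Sstr2, the somatostatin receptor that restrains growth hormone release, read 8.82, 8.58 and 8.67 against 7.85, 7.95 and 7.43. Its difference was -0.95 (SE 0.145, 95% interval -1.28 to -0.62, limma adjusted p = 0.327). It passed with an intensity trend and robust variances (adjusted p = 0.0280). Sstr1, a second somatostatin receptor, read 6.39, 6.41 and 6.36 against 5.90, 5.85 and 5.81. The groups were tight and well apart, with a difference of -0.54 (SE 0.0816, adjusted p = 0.327), though -0.16 on the authors' normalized intensities. The probe is dim.

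Drd2, the dopamine receptor that holds back prolactin, read 8.50, 8.32 and 8.52 against 8.31, 8.12 and 8.03. TCDD array 1 lay just under the lowest vehicle value, and the difference was -0.30 (limma adjusted p = 0.77). The third somatostatin receptor tested, Sstr5, stood at -0.11 with overlap. Receptors of stimulating hormones were also measured: the growth hormone releasing hormone receptor gene Ghrhr at -0.22, the GnRH receptor gene Gnrhr at -0.15, the ghrelin receptor gene Ghsr at 0.13 and the vasopressin receptor gene Avpr1b at 0.14. All 4 had groups that overlapped. Trhr and Esr1, the receptors of thyrotropin-releasing hormone and estrogen, were not above the filter.

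**Figure D2:**
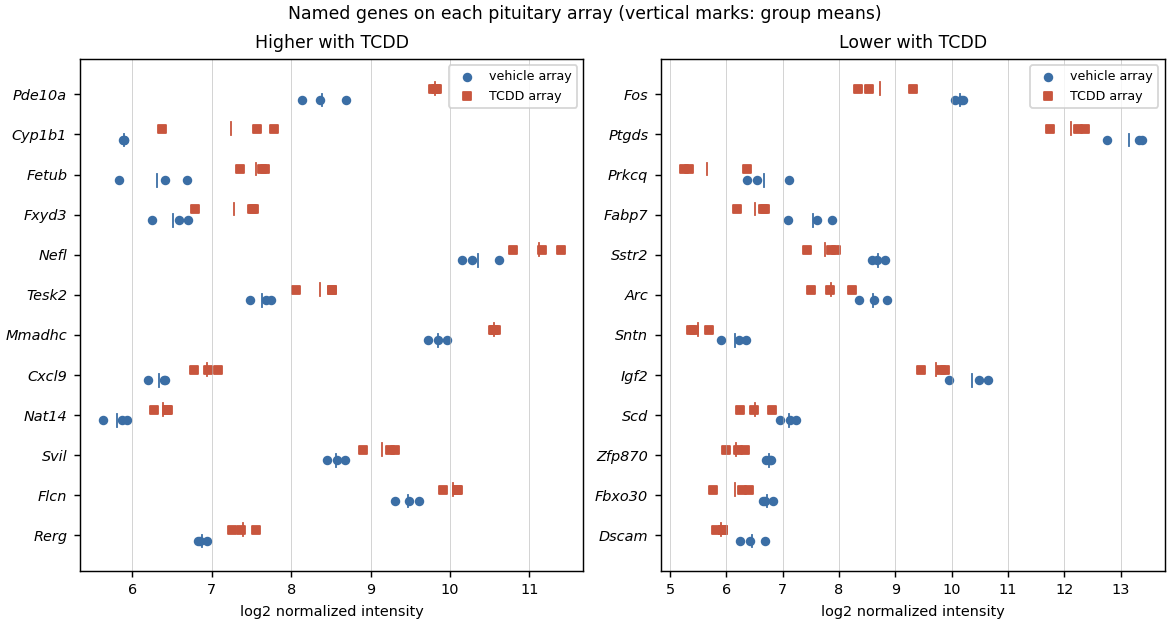
Log2 normalized intensity (x axis) of the 12 genes named in each direction on each of the 6 pituitary arrays; circles are vehicle arrays, squares TCDD arrays and short vertical marks group means. Pde10a and Mmadhc show tight TCDD values, Cyp1b1 and Fos show 1 TCDD array nearer to vehicle, and in all 24 genes the groups lie apart, which the choice of genes required.

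Hormone genes showed no such shift. Lhb differed by -0.01 (95% interval -0.21 to 0.20), Fshb by 0.12 (-0.20 to 0.44), Prl by -0.01 (-0.32 to 0.31), Tshb by -0.10 (-0.33 to 0.13) and Pomc by 0.03 (-0.17 to 0.23). These intervals exclude a 1.5-fold difference for every one of the 5 genes. Lhb, Prl, Tshb and Pomc were bright, between 52.9% and 96.7% of the highest signal on the array, and saturation was not tested. The Cga probe, for the shared glycoprotein hormone subunit, was detected on 2 vehicle and 1 TCDD array and gives no usable value. Lineage transcription factors followed the hormones: of 11 tested, 5 were higher and 6 lower with a median of -0.01, and 0 had an unadjusted p under 0.05. Pou1f1 stood at -0.11, the gonadotrope and thyrotrope factor Gata2 at -0.12, the corticotrope factor Tbx19 at -0.12 and the somatotrope factor Neurod4 at 0.33 (0.14 without vehicle array 1).

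**Figure D3:**
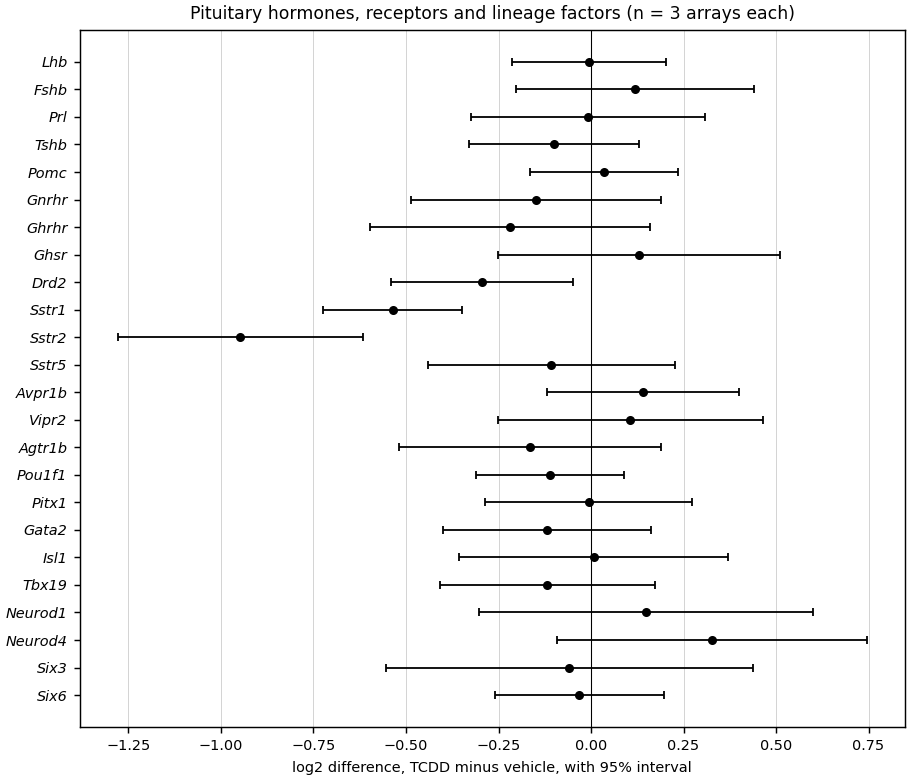
Log2 difference between TCDD and vehicle (x axis; points, with 95% intervals) for hormone genes, hypothalamic factor receptors and lineage transcription factors in the pituitary, 3 arrays per group. The hormone and lineage intervals cross 0, while those of Sstr2 (-1.28 to -0.62), Sstr1 (-0.72 to -0.35) and Drd2 (-0.54 to -0.05) lie below it.

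Downstream signalling was read in 3 lists. Of 25 tested genes of protein kinase C, phospholipase C and calcium signalling, 14 were higher and 11 lower, with a median of 0.01. With median scaling 9 were higher, and 12 were without vehicle array 1. At an unadjusted p under 0.05 there were 3 lower and 1 higher (background 3.29% and 2.73%). Groups lay apart in 3 lower and 3 higher genes (background 5.72% and 5.37%). The protein kinase C genes Prkch and Prkcq, of the class that needs no calcium, were lower. Prkch read 7.86, 7.92 and 7.86 against 7.37, 7.24 and 7.49, a difference of -0.51 (SE 0.0944, limma adjusted p = 0.501). Prkcq read 6.37, 6.53 and 7.12 against 5.33, 6.36 and 5.24 and was detected on 1 of the 3 TCDD arrays, so its difference of -1.03 rests on values near the background. Plcb1, a phospholipase C that Gq activates, stood at 0.27 with groups apart. In the adenylyl cyclase and protein kinase A list 11 of 15 were lower with a median of -0.04 (7 lower and a median of 0.0028 without TCDD array 1), and 0 had an unadjusted p under 0.05. The regulatory subunit gene Prkar1a came closest, at 0.14. Among 18 voltage-gated ion channel genes the A-type potassium channel gene Kcnd3 stood at -0.51 (7.43, 7.09 and 7.64 against 6.79, 6.94 and 6.90). Its modulator Kcnip4 stood at 0.36 and the calcium channel subunit gene Cacnb2 at 0.31, all 3 with groups apart (background 11.1%). With other processing of the arrays the differences shrank to as little as 0.10 for Kcnip4, 0.12 for Cacnb2 and -0.24 for Kcnd3.

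The secretory pathway was read in 2 lists. Of 12 tested granin and prohormone processing genes, 8 were lower with a median of -0.10, and 4 were lower with groups apart (background 5.72%). Pcsk2, the convertase that makes the melanotrope peptides from proopiomelanocortin, read 10.09, 9.92 and 9.95 against 9.90, 9.33 and 9.26. TCDD array 1 lay just under vehicle and the other two further down, for a difference of -0.49 (limma adjusted p = 0.77). Pam, which amidates peptides, stood at -0.17, Scg5, the chaperone of Pcsk2, at -0.16 and the secretogranin gene Scg3 at -0.15. The chromogranin genes Chga and Chgb stood at -0.14 and -0.01. Of the exocytosis machinery, 11 of 20 genes were higher (7 with median scaling and 10 without vehicle array 1). Its member of smallest p, the granule GTPase gene Rab27b, stood at -0.41 with overlap.

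Cholesterol synthesis was the metabolic list with the most members on one side. Of 16 tested genes, 14 were lower and 2 higher, with a median of -0.18, and 4 were lower at an unadjusted p under 0.05 (background 3.29%). Fdft1, squalene synthase, read 9.11, 9.40 and 9.15 against 8.77, 8.88 and 8.80, a difference of -0.40 (SE 0.103, limma adjusted p = 0.628). Msmo1, a sterol methyl oxidase, read 9.95, 10.15 and 9.76 against 9.62, 9.65 and 9.63, a difference of -0.32. Both had all TCDD values lower. Sqle, squalene epoxidase, stood at -0.30 and Dhcr7, which makes the last step to cholesterol, at -0.28. Srebf2, the transcription factor of the pathway, stood at 0.02. The median was -0.06 without TCDD array 1 and -0.22 without vehicle array 3. Between 1 and 5 members had an unadjusted p under 0.05 when 1 array was left out.

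Fatty acid genes were mixed, with 6 of 14 higher and a median of -0.04. Scd, a stearoyl-CoA desaturase, read 7.13, 7.23 and 6.96 against 6.81, 6.50 and 6.23, a difference of -0.59 with no overlap. With other processing of the arrays it shrank to as little as -0.24. Fads1, another desaturase, stood at -0.33 with groups apart, while Thrsp, a thyroid hormone responsive gene of lipid synthesis, stood at 0.50 with overlap. In the cobalamin, folate and one-carbon list, 7 of 13 were lower. Besides Mmadhc, the glycine methyltransferase gene Gnmt (-0.35) and the folate enzyme gene Mthfd1 (-0.21) had an unadjusted p under 0.05 (background 6.02%). Both had groups apart (background 11.1%). Glycolysis had 7 of 18 higher and the tricarboxylic acid cycle 6 of 17 (9 and 10 without vehicle array 1). Hk2, an inducible hexokinase gene, stood at -0.35 but was detected on 1 TCDD array.

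Retinoid genes leaned higher. Of 8 tested, 6 were higher and 4 had an unadjusted p under 0.05, all higher (background 2.73%), with a median of 0.16. Crabp1, a cytosolic retinoic acid binding protein, read 6.54, 6.26 and 6.71 against 6.83, 6.97 and 6.79, a difference of 0.36. Aldh1a1, which makes retinoic acid, read 11.83, 11.75 and 11.81 against 11.93, 12.06 and 12.05, a difference of 0.22. Both had groups apart by small margins. The receptor genes Rxrg and Rara stood at 0.46 and 0.30. Without vehicle array 1 they were 0.29 and 0.19, and 2 of the 8 genes had an unadjusted p under 0.05. Aldh1a2, Cyp26a1, Cyp26b1 and Stra6, further genes of retinoic acid supply and breakdown, were not above the filter.

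**Figure D4:**
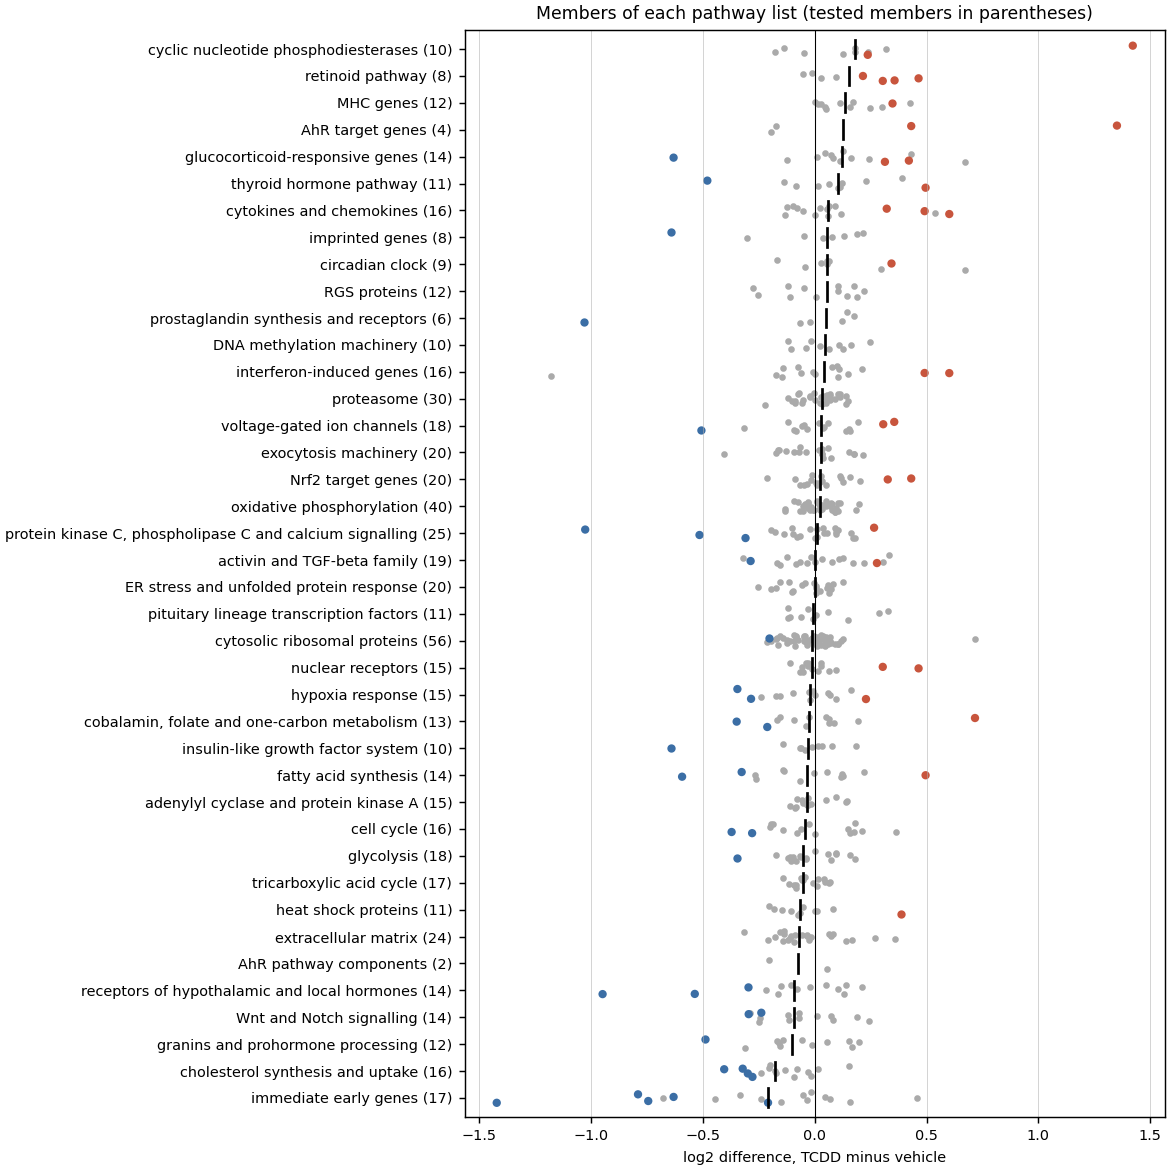
Log2 difference between TCDD and vehicle (x axis) for every tested member of each pathway list, ordered by list median (black bars); red and blue points have an unadjusted p under 0.05. The medians run from -0.21 for immediate early genes and -0.18 for cholesterol synthesis to 0.16 for the retinoid pathway and 0.18 for phosphodiesterases, and most points lie close to 0.

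Immune genes were described by 3 lists. All 12 tested genes of the list for the major histocompatibility complex were above 0 with a median of 0.14, but 9 with median scaling and 8 without vehicle array 1. At an unadjusted p under 0.05 there was 1 (background 6.02%), the class II gene RT1-Ba, at 0.34 with overlap. Without vehicle array 1 there were 0. RT1-N3, a class I gene outside that list, stood at -0.48 and is described with the detection calls. Of 16 interferon-induced genes 9 were higher (5 without vehicle array 1), and Cxcl9 and Cxcl10, chemokines that draw T cells, had an unadjusted p under 0.05 (background 6.02%). Cxcl9 read 6.41, 6.40 and 6.19 against 6.78, 6.96 and 7.07, and Cxcl10 stood at 0.49 with overlap. The interleukin gene Il18 stood at 0.32.

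Genes that answer to glucocorticoids were higher in 12 of 14 cases (10 with median scaling), with a median of 0.12. Nfkbia, the inhibitor of NF-kappa B, read 10.51, 10.92 and 11.03 against 11.19, 11.21 and 11.32, a difference of 0.42. Ddit4, which restrains mTOR, stood at 0.31, or 0.19 without vehicle array 1. Dusp1, described with the immediate early genes, belongs to this list too and was lower. Per1, a clock gene that glucocorticoids induce, stood at 0.67 with overlap, and Fkbp5 and Tsc22d3, the usual readouts of this response, at 0.13 and 0.07. In the clock list Bhlhe40, a repressor, stood at 0.34 with groups apart, and 7 of 9 were higher (5 with median scaling or without vehicle array 1). Thyroid hormone genes were higher in 8 of 11 cases, with the deiodinase gene Dio1 at -0.48.

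The remaining pathway lists had medians between -0.09 and 0.06. Of 40 oxidative phosphorylation genes 24 were higher (18 with median scaling), of 30 proteasome genes 18 and of 56 cytosolic ribosomal protein genes 24, with medians of 0.02, 0.03 and -0.01. In these lists 0, 0 and 1 members had an unadjusted p under 0.05 (background 6.02%). For the extracellular matrix 17 of 24 genes were lower, the median was -0.07 and 0 genes reached that p. Without TCDD array 2 the median was 0.015 with 11 lower. In the cell cycle list 10 of 16 were lower, and the mitotic kinase gene Aurkb read 8.02, 7.78 and 7.98 against 7.43, 7.62 and 7.62, a difference of -0.37. The activin and TGF-beta family held Smad2, a signal transducer, at -0.29 and the activin antagonist gene Fstl3 at 0.28. In the Wnt and Notch list 9 of 14 were lower with a median of -0.09. The Notch target gene Hey2 (-0.29) and Wnt4 (-0.24) had an unadjusted p under 0.05 (background 6.02%), and 0 members did without vehicle array 1. The hypoxia factor gene Hif1a stood at -0.28.

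Markers of the cell types that a pituitary sample can hold were read as summed intensities, since in bulk tissue fewer cells of a type and less RNA per cell cannot be told apart. The sums of all 6 pituitary cell type lists overlapped between the groups, for example 21001 to 24809 for the gonadotrope list in vehicle and 22420 to 23222 with TCDD. The fibroblast and meninges list did not overlap, at 24010 to 27533 against 18658 to 21281, with 8 of 13 tested members lower. Without Ptgds the sums were 16719 to 17076 against 15215 to 16407. Ptgds, which makes prostaglandin D and is abundant in meninges, read 13.33, 12.76 and 13.37 against 12.25, 12.38 and 11.75, a difference of -1.03. Igf2, a growth factor of the meninges, read 10.49, 9.95 and 10.64 against 9.82, 9.45 and 9.88. The collagen genes Col1a1 and Col3a1 stood at 0.17 and -0.11.

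Neural lobe markers did not move together. Slc1a3, a glutamate transporter of glia, stood at 0.67 and Avp, vasopressin, at 0.58, both with overlap, while Gfap stood at -0.09 and Oxt at -0.04. The sum was 2067 to 3022 in vehicle and 2759 to 3749 with TCDD. Fabp7, a fatty acid binding protein of glia and folliculostellate-like cells, read 7.61, 7.88 and 7.10 against 6.69, 6.64 and 6.18. The difference in Fabp7 was -1.02, or as little as -0.46 with other processing of the arrays. The astrocyte list that holds it summed to 7060 to 7897 in vehicle and 8011 to 8595 with TCDD, and the neuron list to 7454 to 7753 and 7794 to 8379. Both were higher on every TCDD array, but 1 bright gene carried each, as sums without it, added after the values were seen, show. Without Slc1a3 the astrocyte sums overlapped, at 6276 to 6600 against 6524 to 6683. Without Nefl the neuron sums were lower on every TCDD array, at 6180 to 6353 against 5610 to 6090. Yet 6 of those 10 neuron markers were higher and 4 lower, with a median of 0.09, and 0 had an unadjusted p under 0.05. Sntn, a protein of cilia tips, stood at -0.67 and was detected on 1 TCDD array, while the other 5 ciliated cell markers, summed without it, gave 1037 to 1312 in vehicle and 948 to 1215 with TCDD. Beside Fetub, the liver protein list had Tf, transferrin, at 0.46, while Alb, Ahsg, Apoh and Fgb were not above the filter. The part of these cell types in the gene differences was not tested.

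**Figure D5:**
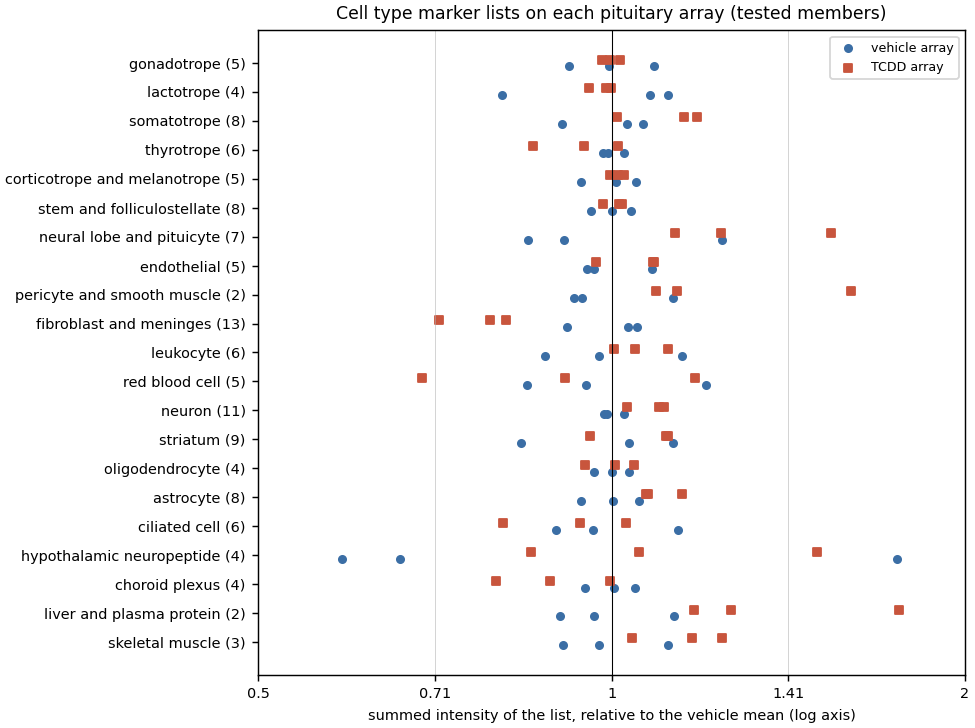
Summed intensity of the tested members of each cell type list on each pituitary array, relative to the vehicle mean (x axis, log scale; circles vehicle, squares TCDD; members tested in parentheses). The fibroblast and meninges sums lie below 1 on all TCDD arrays, the astrocyte and neuron sums above the vehicle arrays, the liver protein sums as well, and all other lists overlap.

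A few genes differed by over 2-fold without meeting the rule for named genes and are given because of their size, chosen after their values were seen. Washc3, a subunit of the endosomal WASH complex, read 5.51, 5.70 and 5.31 in vehicle and 10.40, 10.56 and 5.77 with TCDD. On 2 TCDD arrays it was far above the background and on TCDD array 3 it was at the level of vehicle. Ephx2, the soluble epoxide hydrolase gene, read 7.28, 7.47 and 7.53 against 7.26, 4.99 and 5.00, so that 2 TCDD arrays were at background and 1 was at the level of vehicle. Ccdc77, a coiled-coil protein gene, showed a like split, with 6.33, 7.07 and 7.00 against 6.43, 4.78 and 4.96. Mx2, an interferon-induced GTPase, was low on vehicle array 1 (6.30 against 9.09 and 9.01) and on all TCDD arrays (6.84, 7.42 and 6.61). In all 4 genes the arrays of 1 group fell into high and low values, and the adjusted p by limma lay between 0.687 and 0.867.

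Detection calls differed in number as well. Of 10251 tested probes, 56 (39 named) were detected on all 3 vehicle and 0 TCDD arrays. The reverse held for 11 (5 named), while 8965 probes were detected on all 6 arrays. Each probe detected in only 1 group met the filter through that group alone, so its direction follows from this choice. The vehicle arrays also detected more probes in all, as given above, and the part of that difference was not tested. The probes concerned were dim. Ch25h, the cholesterol 25-hydroxylase gene, was at least 1.36-fold higher with TCDD. Kit, a receptor tyrosine kinase gene, was at least 1.24-fold lower, Gtf2a1, a general transcription factor gene, at least 1.23-fold, C1galt1 at least 1.13-fold, RT1-N3 at least 1.12-fold and Tmcc3 at least 1.04-fold. Each bound sets the bright group's mean against the lowest detected level on each dim array and holds for the main background correction alone. Over the other settings the log2 difference shrank to as little as 0.14 for Ch25h, -0.14 for Kit and RT1-N3, -0.11 for Gtf2a1 and -0.12 for C1galt1 and Tmcc3.

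Where a gene had several tested probes, they could be compared. Of 125 such genes, 74 had all probes in the same direction (of all probes, 50.4% were higher). At least 1 probe had an unadjusted p under 0.05 in 13 genes (background 6.02% of single probes, while each of these genes had several). In 1 of them, Tmem140, a membrane protein gene, all probes did. Its probes gave differences of 0.46 (10.43, 10.59 and 10.82 against 11.16, 11.14 and 10.92) and 0.83 (7.91, 8.30 and 8.97 against 9.53, 8.69 and 9.44). The first had groups apart and the second overlapped. Probes with no gene name made up 2677 of those tested. The largest differences among them by the same rule were 1.42 for ILMN_1374494 and -0.80 for ILMN_1371263, and the former passed without vehicle array 1.

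Whether a difference was particular to the pituitary was tested against the hypothalamus of the same exposures, with all 12 arrays normalized together. Sample titles share a number between the tissues for 1 vehicle and 1 TCDD pair, the labels do not say whether these are the same animals, and the fit treats all arrays as independent. Of 12071 probes, 0 passed limma's interaction test of tissue and TCDD (adjusted p under 0.05), and 744 had an unadjusted p under 0.05 (6.16%), so no gene is called particular to the pituitary. Of the 24 genes named above for their size, those of smallest p were Rerg (0.52 in the pituitary and -0.23 in the hypothalamus), Fetub (1.27 and -0.04) and Sstr2 (-0.95 and -0.07), followed by Fos (-1.39 and -0.26). Fetub was detected on 0 hypothalamus arrays, so its value there has no meaning as a level. Pde10a stood at 1.40 and -0.62, a difference of 2.02 (SE 0.60), with hypothalamus vehicle array 1 at 10.3 against 8.37 and 8.07 on the other 2. Mmadhc was higher in both, at 0.71 and 0.63, and the tissues differed by 0.08. Cyp1b1 stood at 1.40 and 0.46. The adjusted p of the difference was 0.573 or more for every probe.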

How the data were processed

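Per the file headers, the deposited table holds a non-normalized intensity and a detection p-value for each probe on each array, with no scanner software or background step stated in these sources. The authors also deposited normalized intensities, made within each tissue per the series text by a method not stated, and these served as an alternative. The 6 pituitary arrays were background-corrected from the detection p-values (limma 3.58.1 in R 4.3.3, offset 16), quantile normalized and taken to log2. Tested probes had a detection p-value under 0.05 on at least 3 arrays. The groups' difference was fitted by limma (lmFit, eBayes), with two-sided p-values adjusted by Benjamini-Hochberg over 10251 probes, and the script was tested on simulated data. A gene was taken at its brightest probe. The tissues were compared by an interaction term over 12 arrays normalized together.

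Of 22523 probes, 13793 had 1 gene symbol. Named genes were the 12 of largest difference per direction among those at an unadjusted p under 0.01 with groups that did not overlap, a fixed list, and up to 3 members of smallest p per gene list. Of 1240 list entries, 763 were tested. The members and lists were chosen with earlier results of these data known, and lists have counts and medians but no test. Alternatives changed the background, normalization, filter, variance model, block and arrays used. The number of arrays limits the precision: the median standard error was 0.111 and the median 95% interval reached 0.254 either side.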

Additional observations from a re-analysis of the deposited data

How the results depend on the processing

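The number of probes at adjusted p under 0.05 was 0 in the main fit. It was also 0 with median scaling, with cyclic loess and with no detection filter. It was 2 without background correction and 2 on the authors' normalized table (Pde10a and Mmadhc each time), 1 with offset 50, 1 with detection on all 6 arrays, 1 with array weights and 3 with an intensity trend and robust variances (Pde10a, Mmadhc and Sstr2). Leaving out 1 array gave 0 to 3: without vehicle array 1 there were 3 (Pde10a and 2 unnamed probes), without TCDD array 1 there were 2 (Ephx2 and Fos), without TCDD array 2 there was 1 (Cyp1b1) and without TCDD array 3 there were 2 (Washc3 and Zfp14). At an unadjusted p under 0.05 the count was 617, 1240 with no filter (22523 probes tested), 784 with array weights and 519 to 652 with 1 array left out. For the difference between tissues the adjusted count of 0 became 0 to 1 with 1 array left out. Same-numbered arrays were used as a replicate block in 1 fit, which gave 0 adjusted and 633 unadjusted calls, with a smallest adjusted p of 0.187. The numbers are those of the sample descriptions, and the titles carry the same number in only 2 of the 3 pairs. The labels do not say that a number marks a shared litter or batch. The correlations of same-numbered deviations were 0.0692, 0.183 and 0.0673, and every array correlated best with its own number. Whether same-numbered samples share more than a number was not tested. Pde10a kept its direction in every setting, between 1.11 and 1.57. Dim probes moved most: Cyp1b1 was 0.75 and Fetub 0.73 without background correction. Of the other single-gene values, 1795 kept direction and side of the threshold, 14 newly passed it and 12 changed sign without a call. The main fit called 0 values, so there was no call that could reverse. The cause of these changes was not tested.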
